A study of Mus musculus with 5 samples.

Results

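Fgf ligands are secreted proteins that bind Fgf receptors on the producing cell or on neighboring cells, and signal mainly through the MAP kinase cascade. In the gastrulating mouse embryo, Fgf8 and Fgf4 are known for their expression in the primitive streak, where Fgf signaling is needed for cells to leave the epiblast and for expression of the mesoderm regulators T and Tbx6. The 8 ligand genes Fgf3, Fgf4, Fgf5, Fgf8, Fgf10, Fgf15, Fgf17 and Fgf18 were taken by name from the 32285 genes of the files. The choice was made with earlier results of these data known. All 8 were followed in all 5 libraries.

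The study differentiated mouse epiblast stem cells (EpiSCs), a pluripotent line of 129 background derived from post-implantation epiblast, for 3 days. Every culture received 1 µM of the Wnt agonist Chi (CHIR99201 in the labels) and 8 ng/ml BMP4 in N2B27 medium. They differed in that 1 culture received 30 nM of the Fgf receptor inhibitor AZD4547 (FGFRi), with no FGF2 dose stated, and the others 0, 0.75, 3 or 12 ng/ml FGF2. A single library of 10x Genomics single-cell RNA sequencing was made per condition, so differences between conditions had no replicate check and were not tested. Intervals, all at 95%, cover counting error only.

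After filtering, 1701 FGFRi-treated cells were retained, and 1696, 2725, 2125 and 2406 cells along the rising FGF2 doses, with medians of 24408 to 29661.5 UMIs (counted molecules) per cell. Only 7 cell barcodes occurred in more than 1 library. Expression of T, a regulator of streak and nascent mesoderm, was 0.753 CPM (UMIs scaled to a library total of 1000000) with FGFRi, and then 26.7, 92.7, 205 and 208 CPM along the doses. That of Tbx6, a marker of presomitic mesoderm, was 0.23, 5.86, 11.5, 30.4 and 49.0 CPM, and that of Cdh1, which encodes E-cadherin, was 85.8, 93.6, 74.6, 45.3 and 39.7 CPM. The summed level of the 5 mesenchyme markers Acta2, Tagln, Prrx1, Col1a1 and Pmp22 went the other way, from 3275 CPM with FGFRi and 695 CPM without FGF2 to 59.4 and 80.8 CPM at the highest doses, and its part in the ligand levels was not tested. In summed or pooled counts, more cells of a type and more RNA per cell cannot be told apart.

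Of the ligands, 3 lie next to each other. On GRCm38, Fgf3 (chr7:144838083-144844436), Fgf4 (chr7:144847367-144865243) and Fgf15 (chr7:144896531-144900953) share the plus strand within 62.9 kb of chromosome 7, with 2.93 kb between Fgf3 and Fgf4 and 31.3 kb between Fgf4 and Fgf15. The others are on separate chromosomes, Fgf8 on 19 (chr19:45736798-45742915), Fgf17 on 14, Fgf18 on 11, Fgf10 on 13 and Fgf5 on 5. The set of RefSeq promoters used here held 5 of the 8 genes and lacked Fgf8, Fgf15 and Fgf17. The promoters of the neighbors Fgf3 and Fgf4 are shown because these genes rose together. Both sequences are from GRCm38.p6, plus strand, 5′ to 3′, and end at the base before the annotated exon, 233 bases at chr7:144838362-144838594 for Fgf3 and 250 bases at chr7:144861136-144861385 for Fgf4. Each lies within an intron of a longer annotated transcript of its own gene. Capitals mark matches, on either strand, to a TCF/LEF core (CTTTGA) in Fgf3 and a GC box (GGGCGG) in Fgf4.
Fgf3: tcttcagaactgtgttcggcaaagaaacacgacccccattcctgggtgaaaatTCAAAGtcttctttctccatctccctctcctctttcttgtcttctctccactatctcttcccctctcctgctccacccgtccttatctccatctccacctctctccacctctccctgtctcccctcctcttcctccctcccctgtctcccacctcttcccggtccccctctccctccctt
Fgf4: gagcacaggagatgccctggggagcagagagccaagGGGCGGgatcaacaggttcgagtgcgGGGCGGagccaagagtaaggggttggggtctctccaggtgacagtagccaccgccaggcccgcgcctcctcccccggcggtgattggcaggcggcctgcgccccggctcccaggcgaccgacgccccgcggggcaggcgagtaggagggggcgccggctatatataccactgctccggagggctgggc
The Fgf3 stretch was 54.9% G or C and pyrimidine-rich, with a single TCF/LEF match, and the Fgf4 stretch was 71.2% G or C, with 2 GC boxes. The TCF/LEF core occurs in 16.0% and the GC box in 35.7% of all 32851 listed promoters of 300 bases. Neither stretch held a T-box core (AGGTGT, in 13.7% of promoters) or an ETS core (CCGGAA, in 14.9%).

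Fgf8, a main ligand of the streak and caudal embryo, was the most abundant member in every library. Because UMIs count transcript ends, 1 per molecule, levels of different genes were compared in CPM without scaling to gene length. Its level was 2.43 CPM (116 UMIs) with FGFRi, 24.5 CPM without FGF2, and 72.3, 156 and 160 CPM along the FGF2 doses. The ratio to the preceding library was 10.1 (interval 8.37 to 12.3), 2.94 (2.78 to 3.12), 2.16 (2.09 to 2.23) and 1.03 (1.00 to 1.06), so that nearly all of the rise lay at or below 3 ng/ml. Fgf17, a close relative of Fgf8 in the same ligand subfamily, had 10 UMIs with FGFRi (0.209 CPM), and 14.3, 26.3, 50.4 and 48.9 CPM along the doses. Its first step, with a ratio of 68.2 (36.9 to 143), exceeded that of Fgf8, and its whole increase from 0 to 12 ng/ml was 3.43-fold (3.17 to 3.70) against 6.54-fold (6.18 to 6.92) for Fgf8. Fgf18, the other relative, remained low at 1.07, 0.862, 1.97, 3.11 and 2.90 CPM, and did not differ between FGFRi and no FGF2 beyond counting error (ratio 0.809, 0.535 to 1.22).

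The ligands of the chromosome 7 group were almost absent with FGFRi and rose steeply up to 3 ng/ml. Fgf3, known for roles in the tail and inner ear, had 4 UMIs with FGFRi and 3.61, 10.1, 27.2 and 29.2 CPM along the doses. Fgf4, a streak ligand also known from pluripotent cells, had 0 UMIs with FGFRi (upper limit 0.0771 CPM), and 0.669, 3.65, 11.4 and 10.1 CPM. Fgf15, the mouse counterpart of the endocrine ligand FGF19, had 3 UMIs with FGFRi and 1.30, 4.54, 12.9 and 13.9 CPM. From 0 to 12 ng/ml these were increases of 8.10-fold (7.02 to 9.40) for Fgf3, 15.1-fold (10.9 to 21.5) for Fgf4 and 10.7-fold (8.42 to 13.7) for Fgf15. Without FGF2, Fgf4 (38 UMIs, 0.473 to 0.918 CPM) was at least 10.7-fold higher than with FGFRi, taking 3 counts (0.0627 CPM) for the latter and leaving out the counting error of the former. Fgf15 overlaps the antisense genes Gm26793 and Gm39119, whose reads can be told from its own only by strand. Ccnd1, the cell cycle gene 29.0 kb beyond Fgf15, changed by 1.63-fold (1.58 to 1.68) from 0 to 12 ng/ml, from 102 to 166 CPM.

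Both remaining members were scarce. Fgf5, a ligand of the post-implantation epiblast, had its highest level with FGFRi, at 1.40 CPM (67 UMIs), and 0.317, 0.196, 0.155 and 0.198 CPM along the doses, from 10 to 18 UMIs per library. In counts it was 4.42-fold (2.60 to 7.91) higher with FGFRi than without FGF2. Cells chosen for the smooth muscle genes Acta2 and Tagln held it at 1.63 CPM with FGFRi and 0.441 CPM without FGF2. They made up 911 of the 1701 cells with FGFRi, so they cannot show a background level there. The source of the difference was not tested. Fgf10, best known from limb and lung mesenchyme, had no more than 2 UMIs in any library. The order of levels was Fgf8, Fgf17, Fgf3, Fgf15 in all 4 libraries without inhibitor. Fgf4 came next at 0.75 ng/ml and above, whereas without FGF2 its level and that of Fgf18 did not differ beyond counting error.

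**Figure D1:**
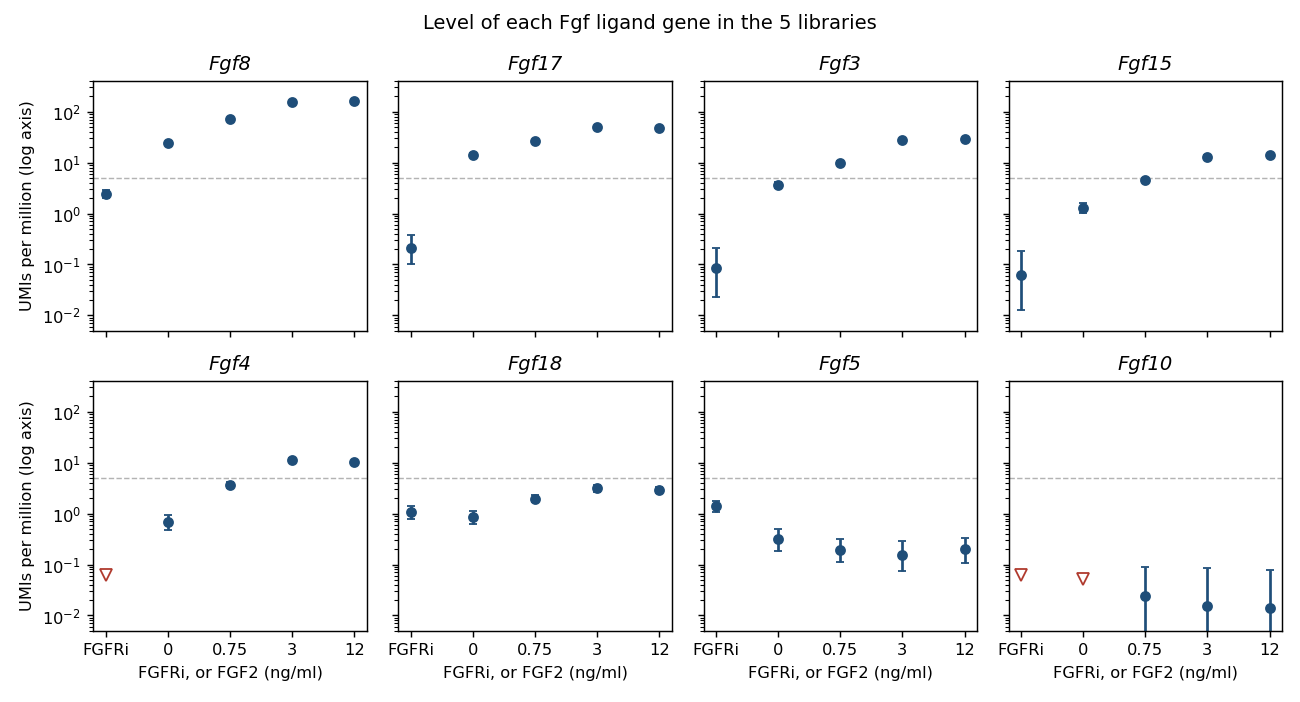
Level of each Fgf ligand gene in CPM on a log axis (points, with 95% Poisson intervals) in the FGFRi library and at 0, 0.75, 3 and 12 ng/ml FGF2. Open triangles mark libraries with 0 UMIs, drawn at the level of 3 counts, and the dashed line marks 5 CPM; Fgf8 climbs from 2.43 to 160 CPM and flattens above 3 ng/ml, while Fgf5 is at 1.40 CPM with FGFRi and at most 0.317 CPM elsewhere.

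Members were called by size, with 5 CPM or more in the higher library and a ratio of 2 or more. By this rule Fgf8 and Fgf17, the only 2 of the 8 members to reach 5 CPM there, were higher without FGF2 than with FGFRi. Of all genes that reached 5 CPM, 2.98% were. From 0 to 0.75 ng/ml, Fgf3 and Fgf8 passed of the 3 members tested, against 0.347% of genes. From 0.75 to 3 ng/ml, Fgf3, Fgf4, Fgf8 and Fgf15 passed, against 0.39%, and Fgf17 missed the limit with a ratio of 1.91. From 3 to 12 ng/ml no member passed, against 0.0725%. From 0 to 12 ng/ml, all 5 members that reached 5 CPM passed, against 2.23%, and no member was called lower in any of these comparisons. Members under 5 CPM in both libraries, such as Fgf5, could be called in neither direction. A member reaches 5 CPM through the library in which it is high, so the counts are to be read as descriptions. The median log2 ratio over the genes tested lay between 0.00 and 0.02 in all 5 comparisons.

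Together, the 8 members took a rising part of the transcripts of 22 Fgf family genes, 27.4% with FGFRi, 73.9% without FGF2 and 87.6%, 93.6% and 92.7% along the FGF2 doses. The members were chosen with earlier results of these data known, so this part is a description. With FGFRi the 22 genes summed to 19.2 CPM, of which the intracellular Fgf13, not a secreted ligand, made 9.12 CPM. The 27.4% with FGFRi thus depends on counting Fgf13. Fgf8 alone held 46.2% of the members' UMIs with FGFRi, 53.9% without FGF2 and 59.7% to 60.7% with FGF2. The part of Fgf17 fell from 31.3% without FGF2 to 18.4% at 12 ng/ml, and that of Fgf4 went from 1.47% to 3.80%. Of the other 14 genes only Fgf9 and Fgf13 reached 5 CPM, and neither passed the rule of size in the 5 comparisons above, in which FGFRi was set against no FGF2 alone. Between FGFRi and no FGF2, Fgf9 went from 1.00 to 4.49 CPM, under the limit in both, so it could not be called there. Fgf9 was at 1.00, 4.49, 6.01, 6.14 and 6.97 CPM, and the intracellular family member Fgf13 at 9.12, 8.43, 7.06, 8.33 and 10.4 CPM.

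For Fgf8, the rise up to 3 ng/ml was seen both in the share of cells with a UMI and in the number of UMIs in those cells. Fgf8 UMIs were found in 2.70% of FGFRi-treated cells (interval 1.99 to 3.59%), and in 23.8%, 46.9%, 72.0% and 73.8% of cells along the doses. The cells that had any held 2.52 Fgf8 UMIs on average with FGFRi and 3.46, 4.61, 6.58 and 6.39 along the doses. With every cell thinned to 5000 UMIs, the shares were 0.705%, 9.32%, 22.3%, 42.0% and 44.0%, in the same order. Shares for Fgf17 were 0.529%, 21.6%, 38.9%, 60.0% and 58.6%, and for Fgf3 0.176%, 6.19%, 14.1%, 32.4% and 38.7%. Cells with Fgf17 UMIs held 2.21, 2.03, 2.55 and 2.45 of them on average along the doses. From 0 to 0.75 ng/ml, only the share of cells with Fgf17 thus rose. Fgf15 UMIs occurred in at most 20.6% and Fgf4 UMIs in at most 15.4% of the cells of a library. At least 1 of the 8 ligands was found in 8.88% of FGFRi-treated cells, 35.7% without FGF2, and 62.3%, 84.8% and 87.4% at the FGF2 doses, and 3 or more in 0%, 5.42%, 13.7%, 32.9% and 36.1%.

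To gauge free RNA, the shares were set beside cells with at least 10 UMIs of the smooth muscle genes Acta2 and Tagln and no T or Tbx6 UMI. These numbered 911, 373, 139, 21 and 38 along the series, with medians of 28846 to 39174 UMIs. Fgf8 UMIs were found in 1.21%, 6.43%, 5.76%, 14.3% (3 of 21) and 2.63% of them, below the share in all cells in each library. Without inhibitor, most Fgf8 UMIs lay in cells with T, which this class leaves out by choice. A lower Fgf8 share than in all cells was therefore partly set in advance. The class also leaves out any cell that took up free T RNA, so it gives no firm level of free RNA. Fgf17 came closer, at 15.8% and 28.9% of them at 0.75 and 12 ng/ml. Thinned to 10000 UMIs per cell, these shares were 4.32% and 5.26%, against 19.8% and 34.5% of all cells. With FGFRi, where the class holds 911 of the 1701 cells, its shares were not below those of all cells for Fgf17 (0.659% against 0.529%), Fgf5 (4.06% against 3.00%), Fgf18 (3.62% against 2.70%), Fgf3 and Fgf15 (0.220% against 0.176% each), and no expression is read from these shares.

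Ligand transcripts were next set against T in the same cells. T UMIs were found in 1.29% of FGFRi-treated cells (22 cells) and in 24.6%, 47.4%, 74.5% and 82.2% of cells along the doses. At the 4 FGF2 doses, 0 included, cells with T held at least 83.9% of all Fgf8 UMIs. Their Fgf8 level was 81.1, 130, 195 and 184 CPM along the doses, and that of cells without T was 5.28, 15.6, 33.3 and 46.9 CPM. Both sets of cells thus had more Fgf8 at 3 and 12 ng/ml than without FGF2, and the ratio between them narrowed from 15.3 (13.3 to 17.8) to 3.92 (3.60 to 4.27). In the FGFRi library, the 22 cells with T held 55 of the 116 Fgf8 UMIs, at 70.0 CPM against 1.30 CPM in the cells without T, and no UMI of Fgf3, Fgf4, Fgf15 or Fgf17. Only 6 of these 22 cells had any Fgf8 UMI, and 33 of the 55 UMIs lay in the 6 cells with T and Cdh1. A single cell of the library held as many as 27 Fgf8 UMIs. The 70.0 CPM thus rests on few cells and is not typical of the 22. T itself went from 105 to 251 CPM within the cells that had it, so cells with a T UMI are not the same set at each dose, and those without include cells with little T.

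Fgf17 differed from Fgf8 in this respect. In cells with T it was at 41.7 CPM without FGF2 and at 40.6, 58.5 and 53.2 CPM at the doses, an increase of less than 1.5-fold, whereas in cells without T it went from 4.91 to 12.4, 24.9 and 27.6 CPM. Fgf3 in cells with T was at 12.3, 19.1, 34.6 and 33.3 CPM, Fgf15 at 4.23, 8.52, 16.4 and 15.8 CPM, and Fgf4 at 2.43, 7.03, 14.7 and 11.6 CPM. Fgf4 thus had its highest level in cells with T at 3 ng/ml. Fgf18 was also concentrated in cells with T, which held 92.5% to 97.1% of its UMIs at 0.75 ng/ml and above, at 3.39 to 3.96 CPM.

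**Figure D2:**
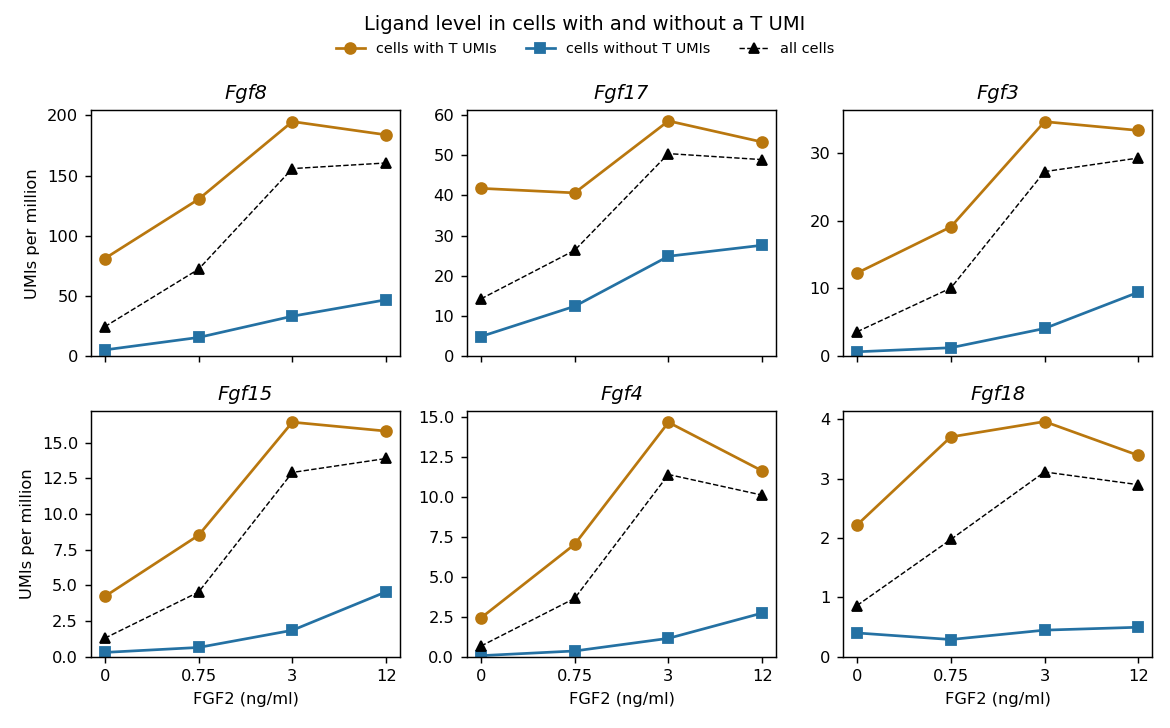
Level of 6 Fgf ligand genes in CPM at 0, 0.75, 3 and 12 ng/ml FGF2, in cells with a T UMI (circles), in cells without (squares) and in all cells (triangles, dashed). Each panel has its own axis, starting at 0; Fgf8 in cells with T rises from 81.1 to 195 CPM at 3 ng/ml, whereas Fgf17 in the same cells stays between 40.6 and 58.5 CPM.

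The share of a library's UMIs that came from cells with T was 25.4% without FGF2 and 82.9% at 12 ng/ml. Reweighting the no-FGF2 levels in cells with and without T to that share gave an Fgf8 level 2.78-fold higher, and giving the 12 ng/ml levels the no-FGF2 share gave 3.33-fold, against the observed 6.54-fold. For Fgf17 the corresponding values were 2.49-fold from the share, 2.39-fold from the levels and 3.43-fold observed. For Fgf4 they were 3.03-fold from the share, 7.46-fold from the levels and 15.1-fold observed, and the change in levels was again the larger of both for Fgf3 (2.85 and 4.30-fold) and Fgf15 (2.73 and 5.70-fold). With 8 classes of cells by T, Tbx6 and Cdh1, the share gave more than the levels for Fgf3 (4.86 against 2.57-fold), Fgf15 (4.85 against 3.54-fold) and Fgf4 (4.13 against 3.81-fold), and slightly less for Fgf8 (2.85 against 3.14-fold). How much of an increase is assigned to levels thus depended on how finely cells were classed.

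Relative to T, Fgf8 changed little along the doses. There were 0.920 Fgf8 UMIs per T UMI without FGF2 (interval 0.854 to 0.990), 0.780 at 0.75 ng/ml, 0.761 at 3 ng/ml and 0.770 (0.751 to 0.789) at 12 ng/ml, while both genes rose more than 6-fold. With FGFRi there were 3.22 (2.20 to 4.82), on 36 T UMIs. Fgf17 per T UMI fell from 0.534 without FGF2 to 0.284, 0.246 and 0.235, and Fgf4 went from 0.0251 to 0.0557 at 3 ng/ml.

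Tbx6 separated the chromosome 7 ligands from Fgf8. Cells with a Tbx6 UMI numbered 135, 437, 767 and 1196 along the doses. Fgf3 was 26.5-fold higher in them than in other cells without FGF2, and 8.36, 4.71 and 3.35-fold higher at the rising doses. Fgf15 was 29.7, 6.89, 5.84 and 2.74-fold and Fgf4 12.2, 5.96, 3.53 and 2.95-fold higher, so all of these stayed above 1 at 12 ng/ml. The ratios without FGF2 rest on only 74 Fgf15 and 38 Fgf4 UMIs in all cells, so their size is imprecise. Fgf8 was 4.01, 2.06 and 1.13-fold higher up to 3 ng/ml, and at 12 ng/ml lower in cells with Tbx6, at 151 against 169 CPM (ratio 0.895, 0.862 to 0.928). The share of cells with an Fgf8 UMI was nevertheless higher with Tbx6 at 12 ng/ml (78.0% against 69.7%), a difference that turned around when cells were thinned, so no order is read from it. Fgf18 was at 1.66 CPM with and 4.09 CPM without Tbx6 at 12 ng/ml (ratio 0.407, 0.295 to 0.555). Fgf17 UMIs were found in 66.7% of cells with Tbx6 without FGF2 (21.6% of all cells) and in 61.5% at 12 ng/ml (58.6% of all cells). High levels with Tbx6 were not limited to chromosome 7. Without FGF2, Fgf9 on chromosome 14 was at 26.5 CPM in the 100 cells with T and Tbx6 but no Cdh1, against 4.49 CPM in all cells.

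Cdh1 is a gene that cells lose as they leave an epithelium. The ratio of ligand levels in cells with Cdh1 to those without changed with the dose, and at 12 ng/ml the ligands lay on different sides of an equal level. The cells with Cdh1 also changed in make-up, as 11.7% of them had T UMIs without FGF2 and 72.4% at 12 ng/ml. The part of this in the ratios was not tested. In cells with T but no Tbx6, Fgf8 without FGF2 was at 55.5 CPM with Cdh1 and 96.9 CPM without Cdh1. Without FGF2, Fgf8 was at 11.4 CPM in cells with a Cdh1 UMI and at 53.9 CPM in cells without, a ratio of 0.211 (0.188 to 0.237). This ratio was 0.461 at 0.75 ng/ml, 1.01 (0.970 to 1.05) at 3 ng/ml and 1.29 (1.24 to 1.34) at 12 ng/ml, where the levels were 186 and 144 CPM. The share of cells did not follow the level. Fgf8 UMIs were found in 61.9% of cells with Cdh1 at 3 ng/ml and 69.8% at 12 ng/ml, below the 72.0% and 73.8% of all cells. The order at 12 ng/ml thus holds for the level of Fgf8 and not for its share of cells. Fgf18 likewise went from 0.284 to 1.84 (1.39 to 2.45), and Fgf4 from 0.183 to 0.901 (0.771 to 1.05). The ratios of Fgf3 and Fgf15 rose as well, from 0.0922 to 0.368 and from 0.0468 to 0.371, and both remained lower in cells with Cdh1 at every dose. Cells with a Cdh1 UMI were somewhat deeper, for instance 29874 against 26285.5 UMIs in the median at 12 ng/ml. Levels in CPM scale the ligand counts for depth, but the classing by a Cdh1 UMI depends on depth too. At 12 ng/ml, 36.2% of cells had a Cdh1 UMI, and 22.5% when thinned to 10000 UMIs. Cells without a Cdh1 UMI can therefore include cells that express it.

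**Figure D3:**
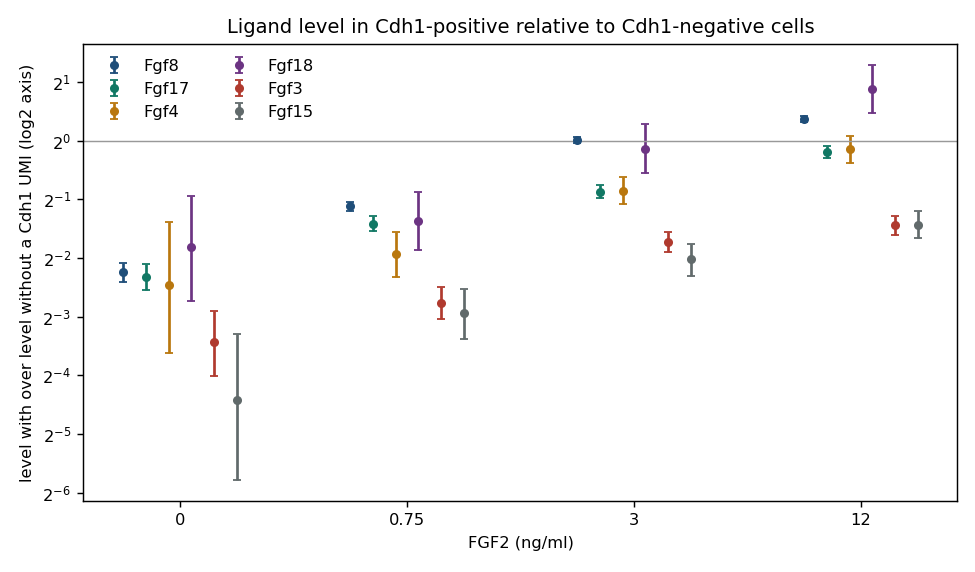
Ratio of the ligand level in cells with a Cdh1 UMI to that in cells without (log2 axis, points with 95% intervals from counting) at 0, 0.75, 3 and 12 ng/ml FGF2, for 6 Fgf ligand genes side by side at each dose. Fgf8 crosses 1 between 0.75 and 12 ng/ml, from 0.211 to 1.29, while Fgf3 and Fgf15 stay below 0.4.

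Classing cells by T, Tbx6 and Cdh1 together showed where each ligand was highest at 12 ng/ml. The 174 cells with all 3 had the highest Fgf8 level, 288 CPM (275 to 303), and the highest Fgf4 level, 29.3 CPM (25.1 to 34.0). The 900 cells with T and Tbx6 but no Cdh1 had 129 CPM of Fgf8 (124 to 133) and 12.5 CPM of Fgf4 (11.2 to 14.0), but the highest levels of Fgf3, 48.1 CPM, and of Fgf15, 21.8 CPM, with 60.4% and 57.6% of their UMIs. Against the class with all 3, neither the Fgf3 (42.4 CPM, 37.3 to 48.0) nor the Fgf15 level (18.2 CPM, 14.9 to 22.0) was separated by its interval. Cells with T but no Tbx6 had 224 CPM of Fgf8 with Cdh1 and 202 CPM without, with 42.4% and 26.8% of the Fgf18 UMIs. The 229 cells with Cdh1 alone had 28.5 CPM of Fgf8, 2 Fgf3 UMIs and no Fgf4 UMI.

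**Figure D4:**
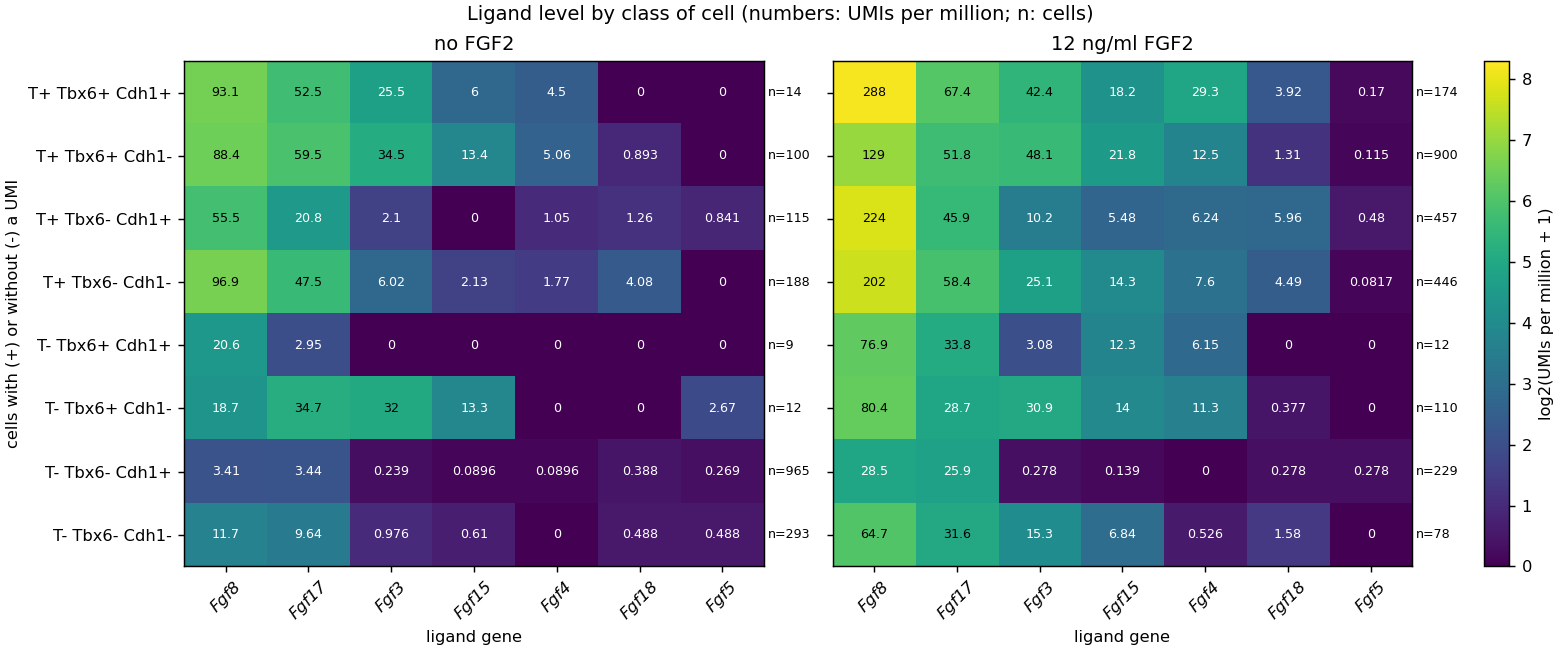
Level of 7 Fgf ligand genes (columns) in 8 classes of cells by presence (+) or absence (-) of T, Tbx6 and Cdh1 UMIs (rows), without FGF2 (left) and at 12 ng/ml FGF2 (right). Numbers are CPM, color is log2(CPM + 1) and n is the number of cells; at 12 ng/ml Fgf8 and Fgf4 peak at 288 and 29.3 CPM in the class with all 3 genes, and Fgf3 at 48.1 CPM in that with T and Tbx6 alone.

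Most ligand pairs with at least 5 expected cells were found together in the same cells more often than the product of their shares gives. The exceptions all involved the scarce Fgf5. Fgf5 and Fgf17 UMIs shared 1 cell at 12 ng/ml, against 6.45 expected (ratio 0.155, interval 0.00392 to 0.864). The other exceptions had intervals that included 1. All 10 pairs of Fgf3, Fgf4, Fgf8, Fgf15 and Fgf17 had a ratio of observed to expected cells above 1 at 0.75 ng/ml (1.42 to 5.98), 3 ng/ml (1.14 to 3.05) and 12 ng/ml (1.12 to 2.68). At 12 ng/ml, 95.3% of the cells with Fgf4 UMIs also had Fgf8 UMIs, and 78.5% also had Fgf3 UMIs. The ratio cannot exceed 1 over the larger share, which limits pairs with Fgf8 to 1.35 at 12 ng/ml, and odds ratios were therefore compared as well. The 3 pairs within the chromosome 7 group had odds ratios of 13.7 to 25.0 at 0.75 ng/ml, 9.57 to 12.6 at 3 ng/ml and 7.27 to 7.88 at 12 ng/ml. The 7 other pairs had medians of 3.85, 3.33 and 2.92. Fgf4 with Fgf8, which lie on different chromosomes, was at 12.3, 5.89 and 8.72, so high values were not limited to the chromosome 7 group. Of the 363 cells with Fgf4 UMIs at 12 ng/ml, 346 also had Fgf8 UMIs. Odds ratios were given no interval, so no order is read from close values. Within cells that had a Tbx6 UMI, odds ratios were taken at 0.75, 3 and 12 ng/ml. The pairs of the chromosome 7 group were at 3.99 to 5.15, 4.73 to 7.10 and 3.65 to 4.96. The other pairs had medians of 2.38, 2.32 and 2.33. Fgf4 with Fgf8 was at 13.8, 3.08 and 5.38. At 0.75 ng/ml, 64 of the 66 such cells with Fgf4 UMIs also had Fgf8 UMIs. With all cells thinned to 10000 UMIs, the chromosome 7 group was at 3.25 to 5.28 at 12 ng/ml. The other pairs then had a median of 2.09, with Fgf4 and Fgf8 at 4.80.

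**Figure D5:**
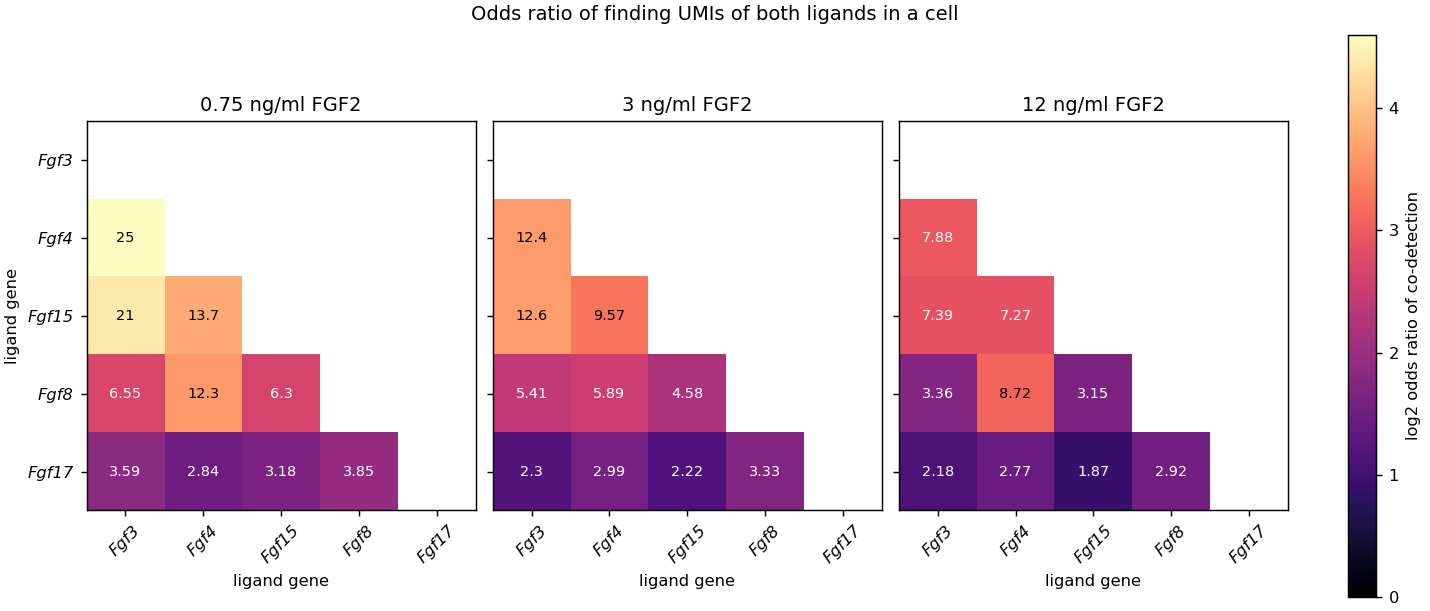
Odds ratio of finding UMIs of both ligands in a cell (numbers, and log2 of the odds ratio as color) for the 10 pairs of 5 Fgf ligand genes at 0.75, 3 and 12 ng/ml FGF2. Pairs within the chromosome 7 group of Fgf3, Fgf4 and Fgf15 lie between 7.27 and 25.0, and Fgf4 with Fgf8 is at 12.3, 5.89 and 8.72.

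Across cells of the 4 libraries without inhibitor, expression most like that of Fgf8 was found for T (mean Pearson correlation 0.634), Rspo3 (0.622), a secreted enhancer of Wnt signaling, Npm3 (0.521), Cenpw (0.461) and Amph (0.459), among 10870 genes found in at least 5% of the cells of each library. Its correlation with Tbx6 went from 0.248 without FGF2 to -0.118 at 12 ng/ml. Those most like Fgf3 were the Notch ligand genes Dll1 (0.468) and Dll3 (0.410), with Rspo3 (0.443), Arl4d (0.417) and Smc6 (0.417). Those most like Fgf17 were Hoxaas3 (0.414), Rspo3 (0.390), Greb1 (0.374), the segmentation clock gene Hes7 (0.371) and Pabpc1 (0.365). Other members were too rare to be compared. The correlations are descriptions over cells that share a library and its depth, and all were lower with cells thinned to 10000 UMIs, for instance 0.492 for T with Fgf8, 0.304 for Dll1 and 0.246 for Dll3 with Fgf3, and 0.201 for Greb1 with Fgf17.

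Genes of the rest of the pathway were called by the same rule. Of 10 target genes tested, 8 were higher without FGF2 than with FGFRi, Spry1, Spry4, Spred2, Dusp4, Dusp6, Etv4, Etv5 and Il17rd, against 2.98% of all genes tested, with a median log2 ratio of 1.44 over the list. From 0 to 12 ng/ml, 3 of 10 did, the feedback inhibitor genes Spry4 (5.88 to 25.6 CPM) and Dusp4 (24.1 to 60.4 CPM) and the transcription factor gene Etv4 (15.9 to 46.4 CPM), against 2.23% of all genes, with a median log2 ratio of 0.80. Without FGF2, Etv4 was 3.66-fold (3.20 to 4.18) higher in cells with Fgf8 UMIs than in cells without, and at 12 ng/ml the ratio was 1.02 (0.948 to 1.11). Spry4 behaved alike, at 1.94 (1.54 to 2.43) and 0.948 (0.854 to 1.05). Of 4 receptor and co-receptor genes tested, Fgfr1 lay between 55.5 and 72.3 CPM in all libraries, and Fgfr2 was at 26.7, 13.9, 9.38, 3.81 and 1.94 CPM, lower by the rule of size from 0 to 12 ng/ml. From 0 to 12 ng/ml, 4 of 13 genes for extracellular Fgf binding were lower (Sdc4, Gpc4, Hs6st1 and Flrt3), and none was higher, against 4.69% of all genes tested that were lower.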

How the data were processed

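Data from 5 single-cell libraries, 1 per condition, were used. The authors deposited un-normalized UMI counts for each barcode that Cell Ranger called a cell, before their own filters. The methods name mm10 with GENCODE vM23/Ensembl 98 and an earlier Cell Ranger than the 5.0.1 in the matrix headers. Positions came from GENCODE vM21 (GRCm38), in which 32158 of 32285 gene identifiers were found, and promoters from RefSeq.

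Barcodes with at least 2500 detected genes and at most 10% mitochondrial UMIs were retained, 10653 of 15375, with 47824660 to 81538748 UMIs per library. Doublets were not removed. Levels were UMIs summed over cells and scaled to 1000000 (CPM), with exact Poisson intervals, ratios had exact conditional intervals, and shares exact binomial ones; a level of 0 was bounded by 3 counts. With a single library of each kind, conditions were not tested against each other and no p-values are given. Genes were called by size (5 CPM in either library, ratio of 2). Cells were thinned to 5000 or 10000 UMIs as a check on depth; at most 39 cells of a library were too shallow for 10000. Co-detection needed at least 5 expected cells, and expected cells were also summed over 10 bins of depth. Odds ratios, class reweighting and UMIs per T UMI were added after seeing the data. Correlations used log(1 + UMIs per 10000). The steps were tested on simulated counts. Python 3.11.15, NumPy 2.4.6, SciPy 1.17.1, pandas 2.3.3, Matplotlib 3.10.9 and, for TMM factors, edgeR 4.0.16 in R 4.3.3 were used.

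The members, pathway lists and markers were chosen with earlier results of these data known. Genes named were the members, T, Tbx6 and Cdh1, genes of the lists with at least 5 CPM, and the 5 genes most like a member. Ccnd1, and the markers of the smooth muscle class, were named for their position and use.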

Additional observations from a re-analysis of the deposited data

Results flagged for a closer look

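Ligand UMIs were also present in the barcodes that failed the filters on cells, which enter no comparison. They were flagged where their interval lay above that of the same barcodes in the FGFRi library, where the levels were 1.71 CPM for Fgf8, 0.854 CPM for Fgf17, 0.427 CPM for Fgf3 and 0 for Fgf4, Fgf15 and Fgf18. Fgf8 was at 17.7, 54.2, 129 and 95.3 CPM and Fgf17 at 13.3, 13.2, 33.4 and 21.0 CPM in the failed barcodes at 0, 0.75, 3 and 12 ng/ml FGF2. Fgf3 was at 5.98, 26.0 and 21.9 CPM and Fgf15 at 6.78, 9.75 and 14.3 CPM at 0.75, 3 and 12 ng/ml. At 3 ng/ml, Fgf4 was at 6.50 CPM and Fgf18 at 3.71 CPM. The source of these UMIs was not tested.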

How the results depend on the processing

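No paired analysis was possible because each condition had 1 library and the replicate numbers pair nothing. The counts of members past the rule of size kept within 1.5 times of their value in 39 of 45 recomputations, among them other filters on cells, TMM factors, equal weight per cell and a ratio of 1.5. The limit on level moved the others. With 1 CPM as the limit, 4 members were higher without FGF2 than with FGFRi and 5 from 0 to 0.75 ng/ml. With 50 CPM, 0 were higher in the former comparison and 1, Fgf8, in each of those from 0 to 0.75, 0.75 to 3 and 0 to 12 ng/ml. Only higher members were recounted, without the share of all genes. At 1 CPM, Fgf5 would also be called, as lower without FGF2 than with FGFRi. The Fgf8 ratio of 12 to 0 ng/ml was 7.11 with at most 5% mitochondrial UMIs and 6.17 with equal weight per cell. Of 170 recomputed level ratios of members, 166 lay within the interval of their value and none changed direction where called. Of 336 recomputed differences in the share of cells with and without T, Tbx6 or Cdh1, 119 moved beyond the interval of their value, all of them with thinned cells. A further 4 changed sign where the interval of the original difference left out 0. Differences whose interval held 0 were not counted for sign. The Fgf8 difference with Tbx6 at 12 ng/ml went to -2.02 percentage points thinned to 10000 UMIs and -4.42 thinned to 5000. The Fgf5 differences, on few UMIs, went to 0.00792 points with Tbx6 at 12 ng/ml thinned to 10000 and to -0.0487 points with Cdh1 at 0.75 ng/ml thinned to 5000. Of 505 recomputed co-detection ratios, 45 left their interval and none changed side of 1 where called. Shares of cells fall with thinning by construction, and with thinning 3 of 15 genes (Amph with Fgf8, Dll3 with Fgf3, Greb1 with Fgf17) left the 5 most similar. Levels under 3 counts, as for Fgf10 throughout and Fgf4 with FGFRi, are limited by depth.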
